A study of Mus musculus with 12 samples.

Results

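The 10 genes described here carry out MHC class II antigen presentation, and they were selected by symbol from the 28188 gene symbols of the count table. They are the I-A chains H2-Aa and H2-Ab1, the I-E beta chain H2-Eb1, the invariant chain Cd74, the peptide exchange chains H2-DMa, H2-DMb1 and H2-DMb2, their inhibitor chains H2-Oa and H2-Ob, and the class II transactivator Ciita. All 10 passed the filter on low counts in both cell types. RNA from splenic B cells and splenic dendritic cells of mice aged 12 weeks was sequenced after poly(A) selection. NOD mice, a strain that develops autoimmune diabetes without treatment, were the control, and the labels name no treatment. NOD.Idd2 mice carry on the NOD background the diabetes locus Idd2 of B10 origin, and the labels name no other difference between the strains. Each strain gave 3 B cell and 3 dendritic cell libraries, which makes 4 groups and 12 libraries. The labels give neither the sorting markers nor the extent of the introduced locus, and they do not say if each library was made from its own animal. The p-values thus reflect the spread of these libraries alone, which may be technical.

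Class II molecules display peptides from endosomes to CD4+ T cells, and B cells and dendritic cells are among the few cells that make them constitutively. An alpha and a beta chain assemble in the endoplasmic reticulum around the invariant chain, which fills the binding groove and directs the complex to endosomes. There proteases trim the invariant chain to a short remnant, H2-DM exchanges this remnant for antigen peptides, and H2-O, made mainly in B cells and some dendritic cells, restrains H2-DM. Ciita binds no DNA itself and switches the set on through factors already seated on shared promoter elements. NOD mice carry a single I-A type with an unusual beta chain, a long-known part of their diabetes risk, and show no I-E at the surface because their H2-Ea gene is not transcribed.

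B cell libraries held 40344883 to 44632276 counts. Dendritic cell libraries held 22769062 to 30337812 counts, except NOD.Idd2 replicate 3 with 8663421. B cell replicate 3 stood apart from replicates 1 and 2 in both strains, with a chi-square per gene of 41.2 to 47.1 against 7.93 and 8.48 between replicates 1 and 2. The 7 B cell markers summed to 11407 to 12049 CPM (counts per 1000000, scaled by the TMM method) in B cells. In dendritic cells, where they were mostly Cd22, they summed to 466 to 485 CPM in NOD and 428 to 465 CPM in NOD.Idd2. The 8 dendritic cell markers summed to 9.35 to 11.2 CPM in B cells and 3889 to 4194 CPM in dendritic cells. The 5 macrophage markers summed to 33.2 to 38.2 CPM in NOD B cells, 40.2 to 47.1 CPM in NOD.Idd2 B cells and 326 to 419 CPM in dendritic cells. The 4 monocyte markers summed to 5.63 to 14.0 CPM in B cells, 194 to 312 CPM in NOD dendritic cells and 361 to 371 CPM in NOD.Idd2 dendritic cells, where they were almost wholly Ccr2. The 5 T cell markers summed to 439 to 517 CPM in dendritic cells, mostly Cd4 and Cd8a, which splenic dendritic cells also express, while Cd3e stood at 3.20 to 6.27 CPM there. No marker of these lists had 0 counts over any group. Xist, the RNA of the inactive X chromosome, ranged from 1563 to 2088 CPM over B cells and from 0.0410 to 0.154 CPM over dendritic cells. The Y-linked Ddx3y ranged from 239 to 306 CPM over dendritic cells and had 0 counts in B cells. Cell type and sex therefore cannot be told apart in any comparison of the cell types.

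Class II transcripts made up 1.64% ± 0.07 of all counts in NOD B cells, 1.72% ± 0.15 in NOD.Idd2 B cells, 3.24% ± 0.16 in NOD dendritic cells and 3.19% ± 0.02 in NOD.Idd2 dendritic cells (SD, n = 3 each). Levels were compared between genes after division by the length of the main GENCODE transcript, as CPM per kilobase. How well reads of the NOD alleles map to the GRCm38 reference genome was not tested for any of the genes. In NOD B cells Cd74 led with 4268 ± 377 CPM per kilobase, followed by H2-Aa with 3050.3 ± 47.3, H2-Ab1 with 1410.0 ± 18.8 and H2-Eb1 with 1257 ± 40.7. The next levels were those of H2-Ob with 462 ± 21.4 and H2-DMb2 with 458 ± 76.2 CPM per kilobase, then H2-DMa with 123 ± 0.816 and H2-Oa with 119 ± 8.57, and last Ciita with 99.0 ± 0.531 and H2-DMb1 with 89.2 ± 20.6 (SD, n = 3 each). The libraries of these last 3 pairs of neighbours overlapped, whereas Cd74, H2-Aa, H2-Ab1 and H2-Eb1 were separated from each other and from the rest in every library. NOD.Idd2 B cells gave the same first 4 places, and H2-DMb2 and H2-Ob, which overlapped, changed places.

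In NOD dendritic cells the 4 most abundant genes kept this order, with Cd74 at 8613 ± 556, H2-Aa at 6417 ± 94.2, H2-Ab1 at 3800.4 ± 264.8 and H2-Eb1 at 3194 ± 109.7 CPM per kilobase. H2-Ob at 303 ± 16.2, Ciita at 297 ± 11.3 and H2-DMb2 at 296 ± 16.1 CPM per kilobase followed, each overlapping its neighbour. Ciita thus moved from place 9 in B cells to place 6. H2-Oa at 212 ± 17.5 and H2-DMa at 192 ± 13.1 CPM per kilobase overlapped each other, and H2-DMb1 was lowest with 122 ± 3.89 (SD, n = 3 each). The order of all 10 was the same in NOD.Idd2 dendritic cells.

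**Figure D1:**
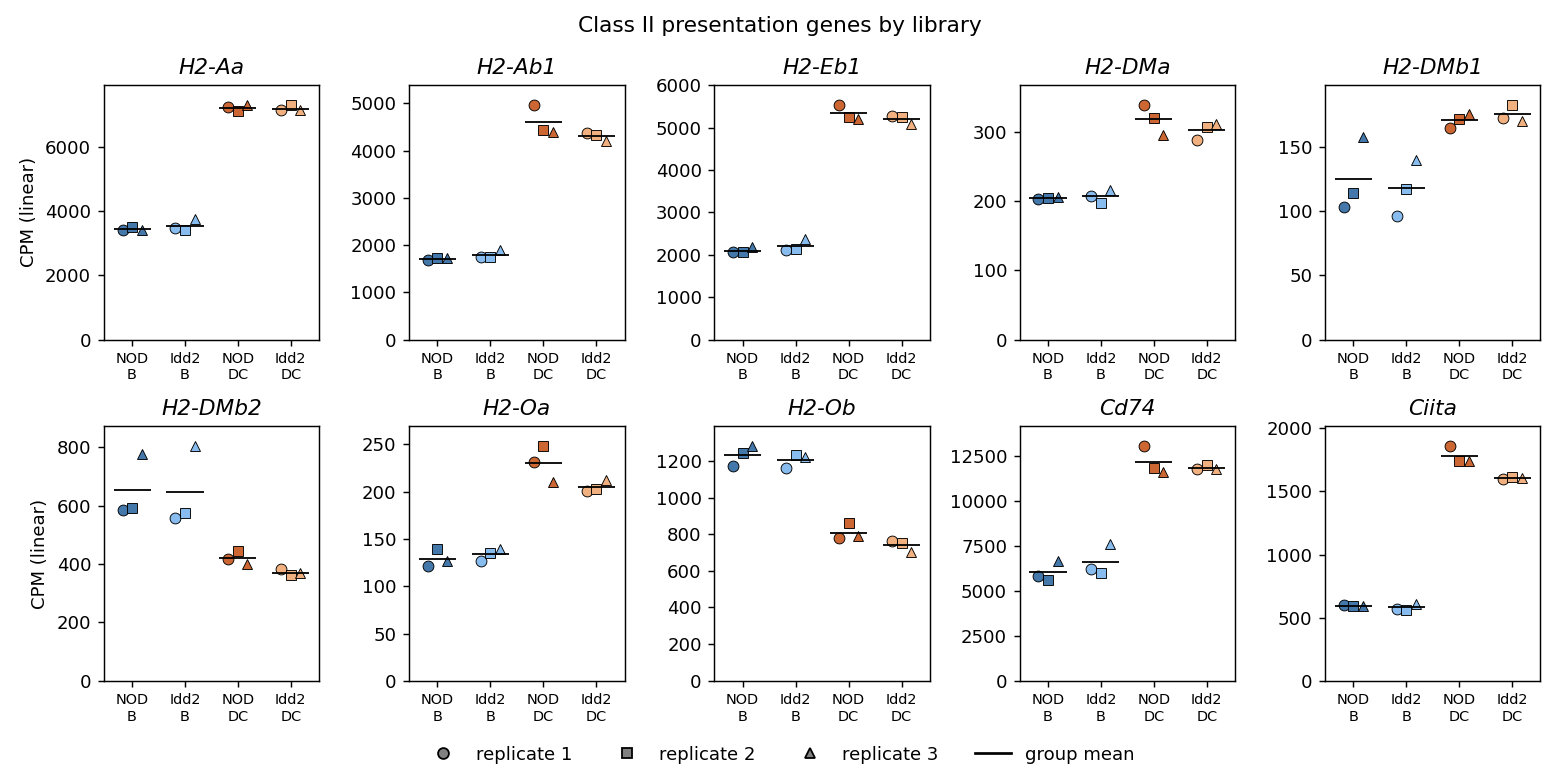
CPM of each of the 10 genes in every library (linear axis from 0, points are libraries, lines are means of 3 libraries, B and DC are B cells and dendritic cells, Idd2 is NOD.Idd2). In 8 panels the dendritic cell libraries lie above all B cell libraries, and in the panels of H2-DMb2 and H2-Ob they lie below them, while B cell replicate 3 is the highest of its group for H2-Eb1, H2-DMa, H2-DMb1, H2-DMb2 and Cd74 in both strains.

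The question of the series, whether the Idd2 locus alters expression, was put to each gene within each cell type. No class II gene passed the quasi-likelihood test of edgeR at a Benjamini-Hochberg adjusted p of 0.05 in either cell type. In B cells 0 of the 10 were called, with adjusted p from 0.876 to 0.999, in a comparison that called 0.16% of 15011 genes. The log2 differences, NOD.Idd2 over NOD, lay between -0.09 for H2-DMb1 and 0.13 for Cd74, 6 of them above 0, with a median of 0.03 against 0.01 over all genes tested. No member had an unadjusted p under 0.05 there. In dendritic cells 0 of the 10 were called, with adjusted p from 0.197 to 0.960, where 1.29% of 14441 genes were. The differences lay between -0.17 for H2-DMb2 and 0.06 for H2-DMb1, 8 of them below 0, with a median of -0.07 against 0.00 over all genes tested. Unadjusted p-values under 0.05 were reached by 3 genes there, at 0.00807 for H2-DMb2, 0.0209 for Ciita and 0.0327 for H2-Oa in the edgeR fit, as they were by 1638 of all genes tested. DESeq2 and limma-voom also called 0 members in each cell type. In dendritic cells the monocyte marker sum given above was higher, and the B cell marker sum lower, in every NOD.Idd2 than in every NOD library. Of the 4 monocyte markers 2 lay above 0 and 2 below, with Ccr2 at 246 CPM in NOD and 360.3 CPM in NOD.Idd2 dendritic cells, and of the 7 B cell markers 6 lay below 0, with a median log2 difference of -0.49. In B cells the macrophage marker sum was higher in every NOD.Idd2 than in every NOD library. Of the 5 macrophage markers 3 lay above 0 there and 2 below, with Adgre1 at 17.9 CPM in NOD and 24.6 CPM in NOD.Idd2. All tested monocyte, neutrophil and natural killer cell markers lay below 0 in B cells, with sums that overlapped between strains. No marker of these lists was called in these comparisons by edgeR (adjusted p = 0.0515 for Ccr2 in dendritic cells), and the part of these cells in the members' differences was not tested.

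The 95% intervals give the sizes these data allow. In dendritic cells they ran from -0.28 to -0.05 for H2-DMb2, from -0.24 to -0.02 for Ciita and from -0.10 to 0.12 for H2-Aa. In B cells the widest belonged to H2-DMb1, from -0.54 to 0.36, and H2-DMb2, from -0.42 to 0.40. These intervals are from the fit without a replicate block. With the replicate number added to the fit as a block, the log2 differences in B cells were -0.08 (SE 0.04) for H2-DMb1 and -0.02 (SE 0.04) for H2-DMb2. The strain differences in the 2 cell types were compared in 1 fit of the 12 libraries, with the same B cell and dendritic cell libraries as above. No member differed between the cell types in its strain difference by the edgeR test (adjusted p from 0.578 to 0.940), in a comparison that called 0.109% of 16588 genes. The values nearest to a difference were those of H2-Oa, -0.22 (SE 0.10, unadjusted p = 0.0390), and H2-Ab1, -0.17 (SE 0.07, unadjusted p = 0.0405), from the same edgeR fit.

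**Figure D2:**
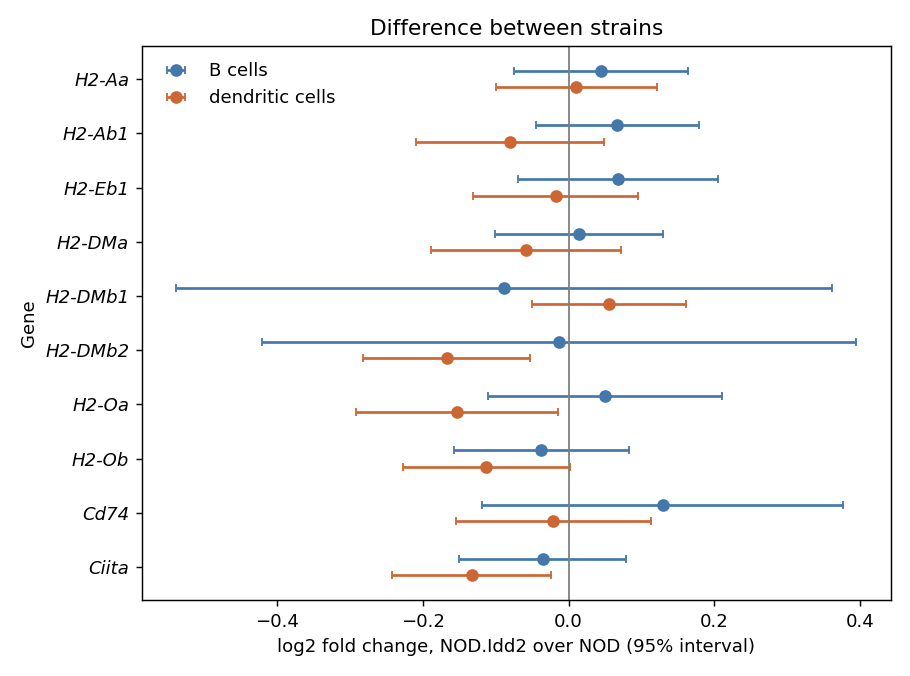
Log2 fold change of each gene, NOD.Idd2 over NOD, with its 95% interval from edgeR's quasi-likelihood fit, for B cells and dendritic cells (3 against 3 libraries each). Points lie between -0.17 and 0.13, and the intervals of H2-DMb2, H2-Oa and Ciita in dendritic cells do not reach 0, although none passes after adjustment.

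Between the cell types the genes differed by far more. Dendritic cells held more of 8 transcripts and less of 2, H2-DMb2 and H2-Ob, in NOD and in NOD.Idd2 mice alike. All 10 passed the edgeR test with Benjamini-Hochberg adjustment in each strain, where 76.4% of 16588 genes passed in NOD and 75.7% in NOD.Idd2, so the count by itself says little about these genes. Higher calls made up 37.7% and 36.7% of all genes tested, and lower calls 38.7% and 38.9%. The median log2 difference of the 10 genes was 0.92 in NOD and 0.73 in NOD.Idd2, against -0.04 and -0.06 over all genes tested. For none of the 10 did the libraries of the cell types overlap within a strain, as was so for 77.5% of genes in NOD and 78.5% in NOD.Idd2. These are bulk samples, in which fewer cells of a type and less RNA per cell cannot be told apart.

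**Figure D3:**
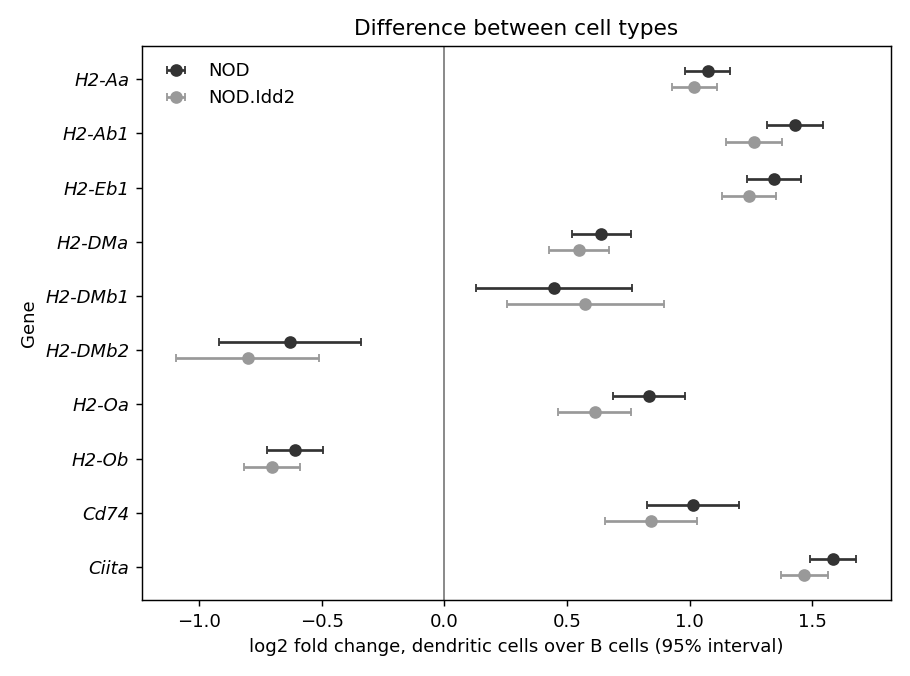
Log2 fold change of each gene, dendritic cells over B cells, with its 95% interval from edgeR's quasi-likelihood fit of the 12 libraries, for NOD and NOD.Idd2. H2-DMb2 and H2-Ob lie below 0 in both strains, the other 8 above 0, and Ciita is farthest from 0 with 1.58 in NOD and 1.47 in NOD.Idd2.

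Among the chains that bind peptide, H2-Aa (chromosome 17, 34282744 to 34287823, minus strand, GRCm38 as all positions here) encodes the I-A alpha chain. H2-Aa stood at 3416, 3502 and 3405 CPM in NOD B cells and at 3485, 3411 and 3769 CPM in NOD.Idd2 B cells. In dendritic cells it stood at 7261, 7123 and 7332 CPM in NOD and at 7154, 7316 and 7152 CPM in NOD.Idd2. The strains overlapped in both cell types, and every dendritic cell library lay above every B cell library. The difference between cell types was 1.07 on the log2 scale (SE 0.04, 2.10-fold, edgeR adjusted p = 9.06e-11) in NOD and 1.02 (SE 0.04, 2.03-fold, adjusted p = 1.58e-10) in NOD.Idd2.

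Its partner H2-Ab1 (chromosome 17, 34257689 to 34269419, plus strand) encodes the I-A beta chain. H2-Ab1 levels were 1683, 1726 and 1718 CPM in NOD B cells and 1754, 1740.1 and 1886 CPM in NOD.Idd2 B cells. They were 4976, 4438 and 4404 CPM in NOD dendritic cells and 4375, 4338 and 4205 CPM in NOD.Idd2 dendritic cells. The strains did not overlap in either cell type, with NOD.Idd2 above NOD in B cells and below it in dendritic cells. H2-Ab1 was the single member without overlap in B cells, where 12.8% of genes showed none, and 1 of 4 in dendritic cells, where 16.5% did, and the differences of 0.07 (SE 0.05, edgeR adjusted p = 0.876) and -0.08 (SE 0.06, adjusted p = 0.680) did not pass. Dendritic cells held 2.70-fold (log2 1.43, SE 0.05) more in NOD and 2.40-fold (log2 1.26, SE 0.05) more in NOD.Idd2.

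For H2-Eb1 (chromosome 17, 34305867 to 34316674, plus strand), the I-E beta chain, NOD B cells gave 2058, 2058 and 2176 CPM and NOD.Idd2 B cells 2099.7, 2145 and 2362 CPM. NOD dendritic cells gave 5542, 5242 and 5210.1 CPM and NOD.Idd2 dendritic cells 5279.9, 5254 and 5081 CPM. The strains overlapped in both cell types. H2-Eb1 was 2.54-fold (log2 1.35, SE 0.05) higher in dendritic cells of NOD and 2.36-fold (log2 1.24, SE 0.05) higher in those of NOD.Idd2. H2-Ea, whose product would pair with it and which GENCODE lists as a polymorphic pseudogene, had 0 to 7 counts per library and was not tested. H2-Eb2, a second beta chain gene beside it, stood at 142 to 156 CPM in B cells and 387 to 484 CPM in dendritic cells.

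Cd74, on chromosome 18, encodes the invariant chain that occupies the groove until the endosome. Cd74 stood at 5822, 5613 and 6620.4 CPM in NOD B cells and at 6229, 5979 and 7564 CPM in NOD.Idd2 B cells. Dendritic cells had 13042, 11794 and 11598 CPM in NOD and 11775, 11986 and 11735 CPM in NOD.Idd2. Replicate 3 was the highest B cell library of each strain, and the strains overlapped in both cell types. Between B cell libraries of the same number Cd74 was higher in NOD.Idd2 in 3 of 3 pairs, as were H2-Ab1 and H2-Eb1. By contrast, H2-Ob was higher in NOD.Idd2 in 0 of 3 pairs and H2-DMb1, H2-DMb2 and Ciita in 1 of 3. The other members, H2-Aa, H2-DMa and H2-Oa, were higher in 2 of 3. With the replicate block the difference of Cd74 was 0.12 on the log2 scale (SE 0.05, edgeR adjusted p = 0.238), which did not pass. Cd74 was 2.02-fold (log2 1.01, SE 0.09) higher in NOD dendritic cells and 1.80-fold (log2 0.84, SE 0.09) higher in NOD.Idd2 dendritic cells than in B cells.

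Within each library the I-A chains stood in a ratio of counts, H2-Aa over H2-Ab1, of 2.01 ± 0.03 in NOD B cells, 1.98 ± 0.02 in NOD.Idd2 B cells, 1.58 ± 0.11 in NOD dendritic cells and 1.67 ± 0.03 in NOD.Idd2 dendritic cells (SD, n = 3 each). A ratio within a library needs no scaling between libraries. Its size also depends on how well reads of each chain's NOD allele map to the GRCm38 reference, which was not tested. The cell types did not overlap in either strain (exact two-sided permutation p = 0.1 each, the smallest that 3 against 3 libraries allow). The strains overlapped in dendritic cells (exact permutation p = 0.2) and B cells (exact permutation p = 0.3). This ratio and those of H2-DMb1 to H2-DMb2 and of H2-Oa to H2-Ob were chosen after their values had been seen.

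H2-DM, the peptide exchange catalyst, pairs the alpha chain H2-DMa with a beta chain from H2-DMb1 or H2-DMb2. H2-DMa (chromosome 17, 34119541 to 34139101, plus strand) stood at 203, 204 and 206 CPM in NOD B cells, 207, 197 and 217 CPM in NOD.Idd2 B cells, 339, 319 and 296 CPM in NOD dendritic cells and 288, 308 and 311 CPM in NOD.Idd2 dendritic cells. The strains overlapped, and dendritic cells were 1.56-fold (log2 0.64, SE 0.06) higher in NOD and 1.46-fold (log2 0.55, SE 0.06) higher in NOD.Idd2. The gene overlaps Brd2 on the opposite strand over 3094 bases. Brd2 had 16493 to 20443 counts per B cell library and 2886 to 9682 per dendritic cell library, and whether counting used strand is not given in the sources used here, so reads of the shared stretch may belong to either gene.

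H2-DMb1 (chromosome 17, 34153072 to 34160230, plus strand) and H2-DMb2 (34143307 to 34151555, plus strand) lie side by side and moved in opposite directions between the cell types. H2-DMb1 stood at 103, 114 and 158 CPM in NOD B cells and 96.5, 117 and 139.9 CPM in NOD.Idd2 B cells, and at 165, 172 and 176 CPM in NOD dendritic cells and 173, 183 and 171 CPM in NOD.Idd2 dendritic cells. H2-DMb2 stood at 586, 593 and 777 CPM in NOD B cells and 559, 576 and 805 CPM in NOD.Idd2 B cells, and at 417, 446 and 400.1 CPM in NOD dendritic cells and 381, 362 and 369 CPM in NOD.Idd2 dendritic cells. Replicate 3 was the highest B cell library for both genes in both strains, and no dendritic cell library fell within the B cell range of its strain. H2-DMb1 was 1.36-fold higher in NOD dendritic cells (log2 0.45, SE 0.15, edgeR adjusted p = 0.0139) and 1.49-fold higher in NOD.Idd2 dendritic cells (log2 0.57, SE 0.15, adjusted p = 0.00337). The call in NOD was lost without NOD B cell replicate 1 (log2 0.32, edgeR adjusted p = 0.0660) or NOD B cell replicate 2 (log2 0.38, adjusted p = 0.0579).

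H2-DMb2 was lower in dendritic cells by a log2 difference of -0.63 (SE 0.13, 1.55-fold, edgeR adjusted p = 0.000875) in NOD and of -0.80 (SE 0.13, 1.74-fold, adjusted p = 0.000136) in NOD.Idd2. Without both B cell replicate 3 libraries, a setting added after the data were seen, H2-DMb1 differed by 0.68 in NOD and 0.75 in NOD.Idd2 and H2-DMb2 by -0.46 and -0.58, all called. Between the strains H2-DMb2 did not overlap in dendritic cells, with NOD.Idd2 lower (log2 -0.17, SE 0.05, edgeR adjusted p = 0.197), and overlapped in B cells. The 2 genes are near copies, with principal transcripts of 1404 and 1424 bases that are 94.4% identical over the aligned bases. Of the 50-base windows of the H2-DMb1 transcript 27.2% also occur in H2-DMb2, and of its 100-base windows 13.7%, so the split of reads between them depends on how multiply mapped reads were counted, which the sources used here do not give.

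The balance of the 2 beta chains, the ratio of H2-DMb1 to H2-DMb2 counts, was 0.191 ± 0.014 in NOD B cells, 0.183 ± 0.018 in NOD.Idd2 B cells, 0.407 ± 0.028 in NOD dendritic cells and 0.474 ± 0.028 in NOD.Idd2 dendritic cells (SD, n = 3 each). B cell libraries ranged from 0.173 to 0.204 and dendritic cell libraries from 0.386 to 0.506, with replicate 3 inside the B cell range. H2-DMb1 thus supplied 14.7% to 16.9% of the counts of the pair in B cells and 27.9% to 33.6% in dendritic cells. The ratio was 2.13-fold higher in dendritic cells of NOD and 2.59-fold higher in those of NOD.Idd2 (exact permutation p = 0.1 each, the smallest possible). In dendritic cells it was 1.17-fold higher in NOD.Idd2 than in NOD, with no overlap (exact permutation p = 0.1), and in B cells the strains overlapped (exact permutation p = 0.6).

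H2-O, the brake on H2-DM, is built from H2-Oa (chromosome 17, 34092340 to 34095234, plus strand) and H2-Ob (34238903 to 34254414, plus strand), and these also went opposite ways. H2-Oa, the alpha chain, stood at 121, 139.5 and 127 CPM in NOD B cells and 127, 135 and 139 CPM in NOD.Idd2 B cells, and at 232, 249 and 211 CPM in NOD dendritic cells and 200.3, 203 and 212 CPM in NOD.Idd2 dendritic cells. H2-Ob, the beta chain, stood at 1170.5, 1246 and 1282 CPM in NOD B cells and 1159.5, 1232 and 1219.7 CPM in NOD.Idd2 B cells, and at 777, 858 and 791 CPM in NOD dendritic cells and 763, 749 and 705 CPM in NOD.Idd2 dendritic cells. The cell types did not overlap for either gene. H2-Oa was 1.78-fold (log2 0.83, SE 0.07) higher in NOD dendritic cells and 1.53-fold (log2 0.61, SE 0.07) higher in NOD.Idd2 dendritic cells. H2-Ob differed by -0.61 (SE 0.05, 1.52-fold lower) in NOD and -0.70 (SE 0.05, 1.63-fold lower) in NOD.Idd2, with edgeR adjusted p = 2.94e-07 and 7.29e-08.

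Between the strains H2-Oa overlapped in dendritic cells (log2 -0.15, SE 0.06, edgeR adjusted p = 0.373), whereas H2-Ob did not, with NOD.Idd2 lower (log2 -0.11, SE 0.05, adjusted p = 0.451). In B cells both overlapped. Counts of H2-Oa over those of H2-Ob gave a ratio of 0.105 ± 0.007 in NOD B cells and 0.111 ± 0.003 in NOD.Idd2 B cells, against 0.285 ± 0.016 and 0.278 ± 0.020 in the dendritic cells (SD, n = 3 each). This ratio was 2.72-fold higher in NOD dendritic cells and 2.49-fold higher in NOD.Idd2 dendritic cells than in the B cells, with no overlap (exact permutation p = 0.1 each). Between the strains it overlapped in B cells (exact permutation p = 0.3) and in dendritic cells (exact permutation p = 0.8).

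The summed counts of both H2-O chains over those of the 3 H2-DM chains put the inhibitor against its target. These counts were not divided by transcript length. The principal transcript has 2670 bases for H2-Ob, 1088 for H2-Oa, 1658 for H2-DMa, 1404 for H2-DMb1 and 1424 for H2-DMb2. H2-Ob thus weighs more in the sum than it would per kilobase. The size of the ratio and of its cell type differences depends on this, and a ratio per kilobase was not tested. The ratio of counts ran from 1.17 to 1.54 in the B cell libraries and from 1.08 to 1.18 in the dendritic cell libraries. The lowest B cell values were those of replicate 3, 1.24 in NOD and 1.17 in NOD.Idd2. On the log2 scale dendritic cells differed by -0.29 in NOD and by -0.32 in NOD.Idd2, with no overlap within a strain (exact permutation p = 0.1 each). The sign of the difference depended on the chains counted. H2-Oa over H2-DMa alone gave 0.20 in NOD (exact permutation p = 0.2) and 0.065 in NOD.Idd2 (exact permutation p = 0.3). H2-Ob over H2-DMa alone gave -1.25 in both (exact permutation p = 0.1 each). Between strains the ratio differed by -0.01 in B cells (exact permutation p = 1) and by -0.04 in dendritic cells (exact permutation p = 0.4). The 4 comparisons of the summed H2-O to H2-DM ratio, those of its single-chain forms and the 12 of the other 3 ratios are given without adjustment, since none could reach 0.05.

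**Figure D4:**
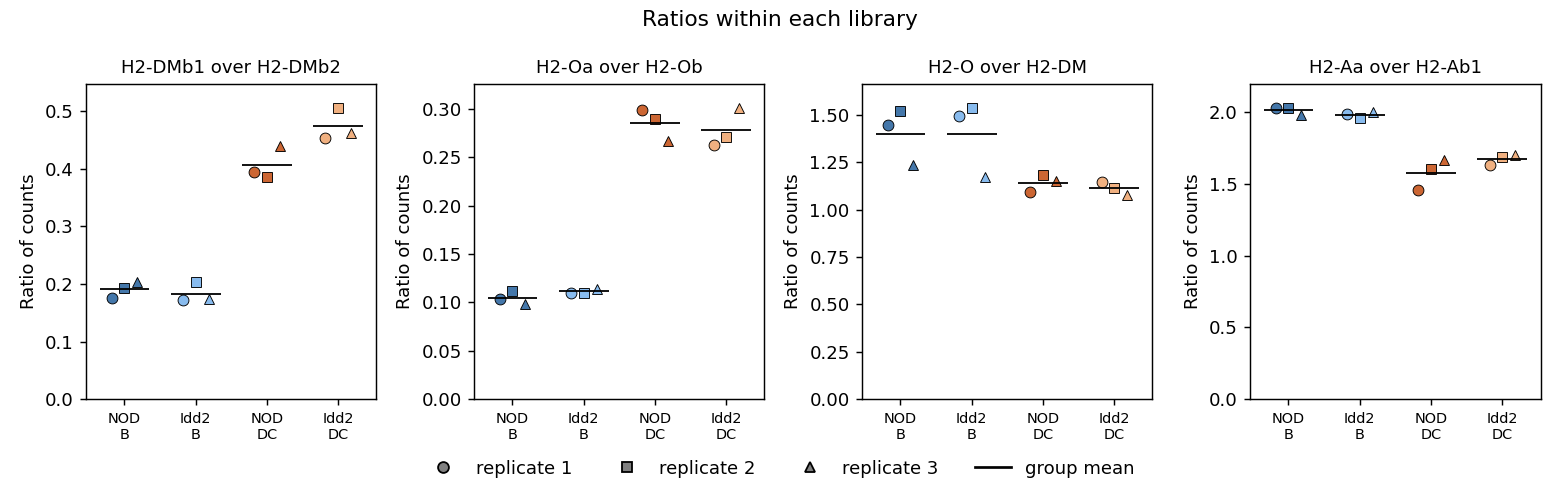
Ratio of counts within each library (linear axis from 0, points are libraries, lines are means of 3) for H2-DMb1 over H2-DMb2, H2-Oa over H2-Ob, summed H2-O over summed H2-DM chains and H2-Aa over H2-Ab1. The first 2 ratios are at least 2.13-fold higher in dendritic cells, and B cell replicate 3 is the lowest B cell library of each strain in the H2-O to H2-DM panel.

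Ciita (chromosome 16, 10480059 to 10528418, plus strand) is the transactivator on which class II transcription largely depends. Ciita stood at 597, 591 and 596 CPM in NOD B cells and at 572, 559 and 612 CPM in NOD.Idd2 B cells. In dendritic cells the levels were 1862, 1744 and 1743 CPM in NOD and 1596, 1615 and 1609.8 CPM in NOD.Idd2. B cells of the strains overlapped, and all NOD.Idd2 dendritic cell libraries lay below all NOD ones. That difference was -0.13 (SE 0.05, 1.10-fold lower, edgeR adjusted p = 0.313). Dendritic cells held 3.00-fold more Ciita than B cells in NOD (log2 1.58, SE 0.04, edgeR adjusted p = 3.00e-12) and 2.77-fold more in NOD.Idd2 (log2 1.47, SE 0.04, adjusted p = 6.37e-12), the largest cell type difference of the 10 genes in both strains. Counts per gene do not separate the alternative promoters from which Ciita is known to be transcribed in the 2 cell types. Dexi, on the opposite strand over 25888 bases of Ciita, had 187 to 1076 counts per library against 14170 to 48518 for Ciita.

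Ciita acts through a multiprotein complex on the X and Y boxes of class II promoters, and the promoter sequences show these elements beside genes that moved in opposite directions. RefSeq promoters of 300 bases on GRCm38, 250 bases before to 50 after the start, were found for 7 of the 10 genes. H2-Ab1, Cd74 and Ciita were not matched. The letters searched on both strands were TGATTGG for the Y box, AAC followed by any 3 bases and TGATG for the X box and TGACGTCA for a full cAMP response element, the site of the Creb factors, and they were settled on after the sequences had been read. The search letters do not overlap each other in the stretches below, which are written 5′ to 3′ on the gene's strand with the matches in capitals. H2-Eb1 and H2-Ob, higher and lower in dendritic cells, hold both boxes, as does H2-DMb2, also lower. H2-Aa holds the response element and the Y box letters without a match to the X box letters, and H2-Oa the Y box letters only. A missing match to these letters does not show that a box is absent.
H2-Eb1, chr17:34305761-34305827, plus strand: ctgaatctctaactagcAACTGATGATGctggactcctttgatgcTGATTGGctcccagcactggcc
H2-Ob, chr17:34238801-34238867, plus strand: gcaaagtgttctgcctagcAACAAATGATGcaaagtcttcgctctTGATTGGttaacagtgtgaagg
H2-DMb2, chr17:34145112-34145178, plus strand: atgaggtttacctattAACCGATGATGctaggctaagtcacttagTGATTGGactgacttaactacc
H2-Aa, chr17:34287852-34287918, minus strand: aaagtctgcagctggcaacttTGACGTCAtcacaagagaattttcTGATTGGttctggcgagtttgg
H2-Oa, chr17:34092289-34092355, plus strand: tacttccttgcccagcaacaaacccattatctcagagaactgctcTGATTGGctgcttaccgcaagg

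The Y box letters occurred in 6 of the 7 genes' promoters, H2-Aa, H2-DMb1, H2-DMb2, H2-Eb1, H2-Oa and H2-Ob, starting 45 to 92 bases before the RefSeq start, and in 7.82% of 32851 promoters of the same length. The X box letters occurred in 4, H2-DMb1, H2-DMb2, H2-Eb1 and H2-Ob, 85 to 121 bases before the start, and in 0.615% of promoters. Both were present in 17 promoters, 0.0517% of all, and these 4 genes are among them. The letters were settled on after the members' sequences had been read, so these shares do not test the members' matches. From the first base of the X box to that of the Y box there were 29 bases in H2-DMb1 and H2-DMb2, 28 in H2-Eb1 and 26 in H2-Ob. The response element stood 74 bases before the start of H2-Aa and occurs in 1.79% of promoters. Neither of the 2 H2-DMa entries held any of the letters, but these RefSeq starts lie 3291 and 5977 bases downstream of the GENCODE start of H2-DMa, whose own promoter was not searched. The RefSeq start of H2-DMb2 lies 1942 bases downstream of its GENCODE start. Of the 4 genes with both boxes, H2-DMb1 and H2-Eb1 were higher and H2-DMb2 and H2-Ob lower in dendritic cells. The sequences are those of the GRCm38 reference, and the part of the boxes in these directions was not tested.

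**Figure D5:**
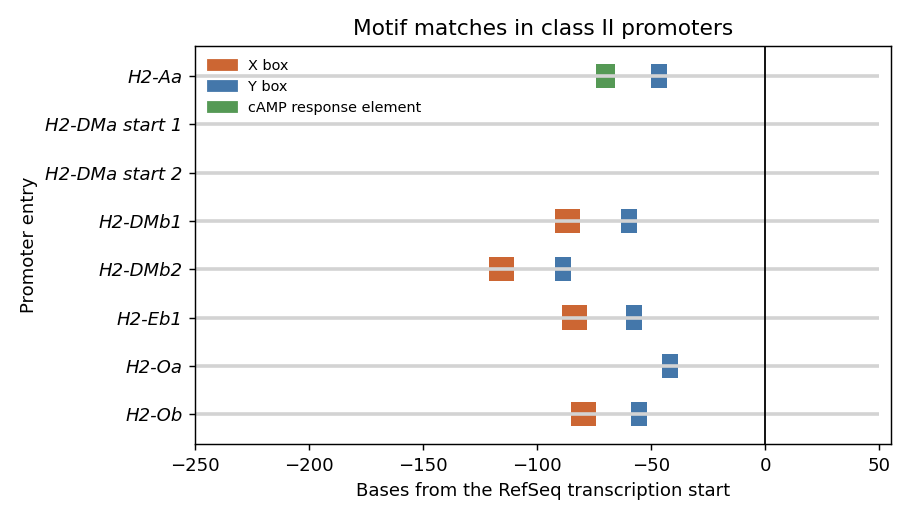
Position of the X box, Y box and cAMP response element letters in the RefSeq promoters of 7 genes, in bases from the transcription start (vertical line at 0, grey bars from 250 bases before to 50 after it, H2-DMa with 2 entries). The X box lies 26 to 29 bases before the Y box in the 4 promoters that hold both, and neither H2-DMa entry holds a match.

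The factors that seat Ciita on DNA were followed as a list: Rfx5, Rfxank and Rfxap of the RFX complex, Nfya, Nfyb and Nfyc of the Y box complex, and Creb1. None of the 7 was called between strains in either cell type. Rfx5, an X box subunit, came nearest in dendritic cells with a log2 difference of -0.15 (SE 0.06, edgeR adjusted p = 0.356), and Creb1 in B cells with -0.11 (SE 0.04, adjusted p = 0.750). Between the cell types in NOD, 2 were higher in dendritic cells, Nfya (log2 0.58) and Rfx5 (log2 0.27), and 4 were lower, Rfxank (-0.93), Nfyc (-0.63), Nfyb (-0.60) and Creb1 (-0.29). In NOD.Idd2 1 was higher, Nfya (0.69), and 3 lower, Rfxank (-0.95), Nfyc (-0.66) and Nfyb (-0.65). Over all genes tested 37.7% were called higher and 38.7% lower in NOD, and 36.7% and 38.9% in NOD.Idd2.

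Of 7 regulators upstream of Ciita, 0 were called between strains in either cell type by edgeR, DESeq2 or limma-voom. An unadjusted edgeR p under 0.05 was reached by 0 of them in B cells and by 1, Spi1, in dendritic cells. Spi1, the myeloid factor PU.1, differed by -0.15 (SE 0.06, edgeR adjusted p = 0.329), Irf8 by 0.18 (SE 0.08, adjusted p = 0.459) and Irf1 by -0.13 (SE 0.07, adjusted p = 0.542) in dendritic cells, where Irf8 was called without a filter on low counts (adjusted p = 0.0303). Between the cell types in NOD, 3 were higher in dendritic cells, Spi1 (log2 2.54), Irf1 (0.71) and Usf1 (0.19), and 4 lower, among them the B cell factor Pax5 (-8.76) and Irf4 (-1.11). In NOD.Idd2 3 were higher and 2 lower. The shares over all genes tested were 37.7% higher and 38.7% lower in NOD, and 36.7% and 38.9% in NOD.Idd2.

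Endosomal proteases and their helpers prepare peptides and degrade the invariant chain, and none of the 10 was called between strains. The closest values were those of Cst3, a cathepsin inhibitor, at 0.19 in B cells (SE 0.09, edgeR adjusted p = 0.785), and Lgmn, an asparagine-specific protease, at -0.14 in dendritic cells (SE 0.08, adjusted p = 0.572). With the replicate block Cst3 was called in B cells (log2 0.19, edgeR adjusted p = 0.0227). In both strains 9 of the 10 were called higher in dendritic cells and 1, Lgmn, lower, with a median log2 difference of 0.90 in NOD and 0.96 in NOD.Idd2, where higher calls made up 37.7% and 36.7% of all genes tested and the median over all genes was -0.04 and -0.06. Cst3 (log2 3.03 in NOD, 2.84 in NOD.Idd2), the thiol reductase Ifi30 (2.06 and 2.02) and the protease Ctsb (1.59 and 1.56) differed most, and Ctss, the main invariant chain protease, by 0.84 and 0.87. Lgmn differed by -0.41 and -0.62. The summed macrophage and monocyte markers given above were also higher in the dendritic cell libraries, where 4 of the 5 macrophage markers were called higher in each strain, and 3 of the 4 monocyte markers. Chil3 was called lower in NOD, and the part of these cells in the differences was not tested. Of the 3 genes of surface turnover, the ubiquitin ligases Marchf1 and Marchf8 and their antagonist Cd83, 0 were called between strains, with Cd83 at -0.11 in dendritic cells (SE 0.05, edgeR adjusted p = 0.422). Cd83 was higher in dendritic cells in NOD (log2 0.20) and NOD.Idd2 (0.15), and Marchf1 passed in NOD (0.12) and not in NOD.Idd2 (0.04). The test of that difference did not pass for Marchf1 (edgeR adjusted p = 0.821).

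The 8 members with an H2 symbol lie in 1 stretch of chromosome 17, from H2-Oa at 34092340 to H2-Eb1 at 34316674, between the class I genes H2-K1 (33996017 to 34000347) and H2-D1 (35262730 to 35267499). Of 12 other genes tested in or beside this region, 1 was called between strains in B cells, where 0.16% of all genes were. In dendritic cells 2 of them were called, where 1.29% of all genes were. An unadjusted edgeR p under 0.05 was reached there by 8 of the 12, against 1638 of 14441 genes tested. The strains did not overlap there for 7 of the 12, against 16.5% of genes. In B cells 2 of the 12 had such a p, against 961 of 15011 genes, and 2 did not overlap, against 12.8% of genes. The genes called were the flanking class I genes. H2-D1 stood at 1629, 1727 and 1598 CPM in NOD and 524, 529.7 and 485 CPM in NOD.Idd2 dendritic cells (log2 -1.67, SE 0.05, edgeR adjusted p = 5.37e-09), and it was lower by -1.51 (SE 0.10, adjusted p = 0.00223) in B cells. H2-K1 was higher in NOD.Idd2 dendritic cells (log2 0.63, SE 0.07, edgeR adjusted p = 0.00136) and differed by 0.43 (SE 0.13, adjusted p = 0.725) in B cells. With the replicate block H2-K1 was also called in B cells (edgeR adjusted p = 4.51e-05). The 8 members of this stretch differed by at most 0.17 in size. Tap1, a peptide transporter chain, differed by -0.20 (SE 0.06, edgeR adjusted p = 0.214), Notch4 by 0.18 (SE 0.06, adjusted p = 0.220) and H2-Eb2 by -0.18 (SE 0.05, adjusted p = 0.179) in dendritic cells. Tap1 was called without NOD dendritic cell replicate 3 (log2 -0.28, edgeR adjusted p = 0.0196) and without a filter on low counts (adjusted p = 0.0173).

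Genes whose pattern was most like that of H2-Ab1, Ciita and H2-Oa were sought among 10415 others with a mean of at least 5 CPM. After each of the 12 libraries was centred on its group mean, the closest by Pearson's r were Ddx54 (0.968), Lyl1 (0.953) and Prdm4 (0.949) for H2-Ab1, Kcnab2 (0.946), Alg9 (0.941) and Mybbp1a (0.928) for Ciita, and Fam161a (0.977), Fgr (0.938) and Gm28417 (0.936) for H2-Oa. Over the uncentred libraries, which fall into the 2 cell types, Laptm5, Relb and Cep70 came first for H2-Ab1, Haus8, Hic1 and Relb for Ciita, and Cacnb4, Tbcd and Tmem131l for H2-Oa. The points share depth and library, and the values only describe likeness.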

How the data were processed

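Each of the 12 libraries was placed in 1 of 4 groups by its sample title. The authors deposited raw counts per gene symbol. STAR (version written as 0.12.2) and GRCm38 are named in the submitters' processing notes. The sources used here give no counting tool, annotation, strand setting or rule for multiply mapped reads.

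CPM values and tests came from edgeR 4.0.16 (R 4.3.3) with TMM scaling. The low-count filter was filterByExpr, at 10 counts per library and 15 in total. The strain tests used a quasi-likelihood fit of 6 libraries per cell type. The cell type tests and the difference of strain effects used 1 fit of 12 libraries. P-values were Benjamini-Hochberg adjusted over all genes tested, with a threshold of 0.05. Positions and transcript lengths are GENCODE's on GRCm38, promoters RefSeq's. Ratios were compared by exact permutation of libraries. The tests were also run on simulated counts. Those held changes larger than the members' strain differences and no shared effect of replicate number, so they do not check the tests for such differences.

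The members and the lists were chosen with earlier results of these data known. Named are all members, list genes called between strains and up to 3 others per list with the smallest p. Of the list of Ciita regulators 1 gene is not reported here. List genes named only between cell types, genes overlapping members and H2-Ea were chosen after their values were seen.

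B cell libraries of the same replicate number deviated together from their group means (r = 0.617, 0.407 and 0.815 for numbers 1, 2 and 3). The tests above carried no replicate block, which was run as an alternative. Numbers 1 and 2 also correlated crosswise (0.427 and 0.466), and the labels state no pairing. In dendritic cells r was -0.004, 0.013 and 0.054. Alternatives were DESeq2 1.42.0, limma-voom (limma 3.58.1), RLE scaling, other low-count filters, other samples in the fit, the replicate block and each library left out.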

Additional observations from a re-analysis of the deposited data

How the results depend on the processing

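No member was called between strains, or for the difference of strain effects, under any alternative run. With the replicate number as a block 156 genes were called between strains in B cells and 56 for the difference of strain effects, and 0 members in either. All members kept their direction and call between cell types, except H2-DMb1 in NOD as given in the report. The signs of small strain differences that never passed turned in some settings.

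Counts over all genes moved more. In B cells 24 genes were called, against 122 with DESeq2, 42 in the fit of 12 libraries, 46 without both replicate 3 libraries (added after the data were seen) and 13 to 18 with 1 library left out. In dendritic cells 186 were called, against 296 with DESeq2, 700 without a filter on low counts, 94 in the fit of 12 libraries and 63 to 332 with 1 library left out, the highest without NOD replicate 3. For the difference of strain effects 18 were called, against 114 with DESeq2, 33 without a filter and 7 to 19 with 1 library left out. The cause of these shifts was not tested.

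Between cell types the difference in the log2 ratio of H2-O to H2-DM counts turned to 0.20 in NOD and 0.065 in NOD.Idd2 for H2-Oa over H2-DMa (exact permutation p = 0.2 and 0.3). For H2-Ob over H2-DMa it became -1.25 in both. Between strains in dendritic cells it was -0.092 for H2-Oa over H2-DMa (exact permutation p = 0.2). Depth limits the shallow NOD.Idd2 dendritic cell replicate 3 most, and 3 libraries a group limit the precision of every difference.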
